A study of Mus musculus with 24 samples.

Results

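The genes described here code for 10 antimicrobial proteins of mouse skin and white blood cells. They are the lipocalin Lcn2, the cathelicidin Camp, the iron-binding lactoferrin Ltf, the whey acidic protein (WAP) domain genes Slpi and Wfdc21, and the beta-defensins Defb1, Defb3, Defb4, Defb6 and Defb14. Each was found by matching the Ensembl identifiers of the deposited count table to GENCODE M21 symbols, and all 10 were among the 51912 genes of the table. After a filter on low counts 17289 genes were tested, 8 of the 10 among them. Camp and Ltf had too few counts and are given as counts.

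Whole ears of C57BL/6 mice were profiled by polyA RNA sequencing in 24 libraries, 6 in each of 4 groups. The mutant mice carry a Card14 allele with a stop cassette between lox sites, which CreERT2 removes after tamoxifen so that CARD14 with the E138A change is made from its own locus. In keratinocytes CARD14 assembles the complex that turns on NF-κB, and E138A is a psoriasis-associated change that leaves it active. The groups were CARD14E138A ears at day 5, Wt ears at day 5, CARD14E138A ears at 1 month and Wt ears at 1 month. The mice of all 4 groups received tamoxifen into the peritoneum once daily on 3 days in a row, and time was counted from the first dose. The promoter that drives CreERT2, whether Wt mice carry CreERT2, and the age and sex of the mice are not given in the labels. No label states that each library is its own animal, and the p-values therefore cover the spread among these libraries, which may be technical. In whole-ear RNA, fewer cells of a type and less RNA per cell cannot be told apart.

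Total counts per library were 16803707 to 18852995 in CARD14E138A and 15661565 to 16998924 in Wt ears at day 5, and 20608314 to 23022182 in CARD14E138A and 19255064 to 23905012 in Wt ears at 1 month. Card14 itself lay at 35.07 to 65.36 CPM (read counts relative to the TMM-scaled library total) in CARD14E138A and 34.6 to 54.2 CPM in Wt ears at day 5. At 1 month it lay at 9.928 to 25.26 CPM in CARD14E138A and 32.87 to 49.9 CPM in Wt ears. This RNA cannot check the labels, because the mutant allele is expressed from the same locus. The 6 keratinocyte markers (Krt5, Krt14, Krt1, Krt10, Trp63 and Dsp) were present in every library. At 1 month 4 libraries, CARD14E138A replicates 1, 2 and 6 and Wt replicate 2, stood apart with 17.9 to 67.6 CPM of Y-linked genes, against 101.9 to 266.6 CPM in the other 8 libraries of 1 month and 142.3 to 244.4 CPM at day 5. Xist was at most 0.174 CPM in every library. For the 8 tested genes the results at 1 month are also given without these 4 libraries.

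Antimicrobial peptides and proteins are a first defence of the skin surface. Beta-defensins and cathelicidin are small, positively charged peptides that disturb microbial membranes and also attract leukocytes. Lcn2 captures the siderophores with which bacteria take up iron, and lactoferrin binds iron itself. Slpi blocks neutrophil serine proteases such as elastase. Keratinocytes make many of these proteins, with IL-17, IL-22 and NF-κB among the known inducers, and neutrophils carry Lcn2, cathelicidin and lactoferrin in their granules, whose transcripts are made mainly by precursors in the bone marrow. Psoriatic skin is known for high levels of several of them.

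The 5 beta-defensin genes lie on chromosome 8 (GRCm38). Defb14 (19194357 to 19195212), Defb4 (19198706 to 19201545), Defb6 (19225478 to 19228209) and Defb3 (19293360 to 19295291) are close neighbours on the plus strand, and Defb1 (21776599 to 21795185, plus strand) lies farther away. Their coding sequences are from the GENCODE M21 transcripts. They are shown because Defb3, Defb4 and Defb6 are close in sequence and yet had very different levels in the ear. Capitals mark all cysteine codons. In the mature peptide, 6 cysteines form the disulfide bridges of the defensin fold.
Defb6: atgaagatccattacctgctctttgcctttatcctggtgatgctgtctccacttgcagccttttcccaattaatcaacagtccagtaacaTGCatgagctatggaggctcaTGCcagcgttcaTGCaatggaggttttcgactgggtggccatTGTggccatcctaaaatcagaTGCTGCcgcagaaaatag
Defb4: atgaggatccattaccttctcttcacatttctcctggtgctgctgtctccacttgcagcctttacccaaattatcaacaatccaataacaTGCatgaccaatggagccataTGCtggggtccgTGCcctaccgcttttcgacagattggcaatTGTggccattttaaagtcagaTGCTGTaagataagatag
Defb3: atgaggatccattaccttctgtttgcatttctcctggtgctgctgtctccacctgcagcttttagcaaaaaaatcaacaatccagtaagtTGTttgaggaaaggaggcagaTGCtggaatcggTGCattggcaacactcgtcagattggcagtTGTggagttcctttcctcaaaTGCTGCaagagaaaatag
Defb14: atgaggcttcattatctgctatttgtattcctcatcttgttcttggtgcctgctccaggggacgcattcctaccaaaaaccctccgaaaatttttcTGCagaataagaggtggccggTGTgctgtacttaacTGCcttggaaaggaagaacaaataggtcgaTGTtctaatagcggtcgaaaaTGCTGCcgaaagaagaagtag
Defb1: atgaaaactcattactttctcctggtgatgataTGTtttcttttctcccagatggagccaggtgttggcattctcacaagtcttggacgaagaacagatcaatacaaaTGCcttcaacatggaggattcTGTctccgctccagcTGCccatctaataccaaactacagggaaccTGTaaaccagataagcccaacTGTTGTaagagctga

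The coding sequences of Defb3, Defb4 and Defb6 are 192 bases long with 6 cysteine codons each. That of Defb14 has 204 bases with 6 cysteine codons, and that of Defb1 has 210 bases with 7. The first of these 7 lies near the start, apart from the other 6, and is not counted to the fold. Defb4 and Defb6 were identical at 78.6% of aligned positions, Defb3 and Defb4 at 75.9%, and Defb3 and Defb6 at 71.9%. Defb14 was less close to these, with 58.7% for Defb3, 58.3% for Defb4 and 57.7% for Defb6. Defb1 was identical to each of the other 4 at 50.8% to 53.6%. No stretch of 75 bases, the stated read length, in the transcripts of any of the 10 genes occurred in those of another gene. Exact reads of that length could therefore be told apart, also for Defb3, Defb4 and Defb6.

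Of the 10 genes, 6 had an entry among the RefSeq promoters of GRCm38.p6 (Lcn2, Camp, Ltf, Slpi, Defb3 and Defb6). The windows of Defb6 and Defb3 from -250 to -101 bases before the start are printed because the pair shares most of its letters and differs in an NF-κB motif, NF-κB being the pathway that the mutant protein turns on. They lie at chr8:19225228-19225377 and chr8:19293111-19293260, plus strand, in no GENCODE exon. Capitals mark motif matches, the NF-κB match of Defb6 and the C/EBP motif TTGCNNAA in both.
Defb6: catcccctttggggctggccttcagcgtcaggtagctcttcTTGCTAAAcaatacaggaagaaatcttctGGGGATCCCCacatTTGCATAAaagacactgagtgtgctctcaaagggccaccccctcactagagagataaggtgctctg
Defb3: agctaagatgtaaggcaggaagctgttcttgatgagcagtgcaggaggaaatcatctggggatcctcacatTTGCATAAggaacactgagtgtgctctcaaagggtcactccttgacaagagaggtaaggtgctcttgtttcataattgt

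Over the 250 bases before the start, the Defb3 and Defb6 promoters were identical at 74.0% of aligned positions. An NF-κB site was matched, on both strands, in Defb6 alone of the 6 windows, at -180 to -171, and 3.75% of the 27025 promoters in the table hold one. At the aligned letters, 4 bases before a shared TTGCATAA, Defb3 differs from the Defb6 match by C9T, counted from 1 at the 5′ end of the match with the Defb6 base first. TTGCNNAA was matched on either strand in the windows of Lcn2, Ltf, Slpi, Defb3 and Defb6, 5 of 6, and in 9.55% of all promoters. The STAT motif TTCNNNGAA was matched in none of the 6 windows and in 7.18% of all promoters. The matches of the NF-κB and C/EBP motifs in Defb6 do not overlap, and a match describes letters in a window and no binding.

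The first comparison, CARD14E138A against Wt ears at day 5, addresses the immediate effect of the mutant protein, and the same comparison at 1 month addresses its chronic effect. Lcn2, Slpi, Defb1, Defb3, Defb4, Defb6 and Defb14 were higher and Wfdc21 was lower in CARD14E138A ears at both times by edgeR's quasi-likelihood test with Benjamini-Hochberg adjustment. These are 7 higher and 1 lower of the 8 genes tested, where 20.7% of all tested genes were called higher and 20.2% lower at day 5 (40.9% in all), and 25.5% and 21.5% at 1 month (47.1% in all). Defb3 and Defb4 passed the filter only through the CARD14E138A libraries, so these counts describe the tested genes and are no evidence about the list. The median log2 fold change over the 8 genes was 3.55 at day 5 and 2.84 at 1 month, against -0.024 and 0.048 over all genes tested. The 6 CARD14E138A and 6 Wt libraries did not overlap in 5 of the 8 genes at day 5 and in 7 at 1 month, as in 34.3% and 21.2% of all tested genes. With total-count scaling the whole table had 3331 genes higher and 3766 lower at day 5, and 3828 higher and 4259 lower at 1 month, against 3579 and 3489, and 4417 and 3725, with TMM. No direction of the 8 genes in these comparisons turned with RLE or total-count scaling.

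Markers of the cells that make these proteins moved with genotype as well. The 6 keratinocyte markers summed to 27500 to 37230 CPM in CARD14E138A and 22800 to 31580 CPM in Wt ears at day 5, and to 30660 to 49620 CPM in CARD14E138A and 16300 to 28510 CPM in Wt ears at 1 month, where the groups did not overlap. Of the 6 markers, 2 were called higher and none lower at day 5, and 3 were called higher and 1 lower at 1 month. Over all tested genes 20.7% were called higher and 20.2% lower at day 5, and 25.5% and 21.5% at 1 month. The part of keratinocyte content in the levels of Lcn2, Slpi and the defensins was not tested.

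**Figure D1:**
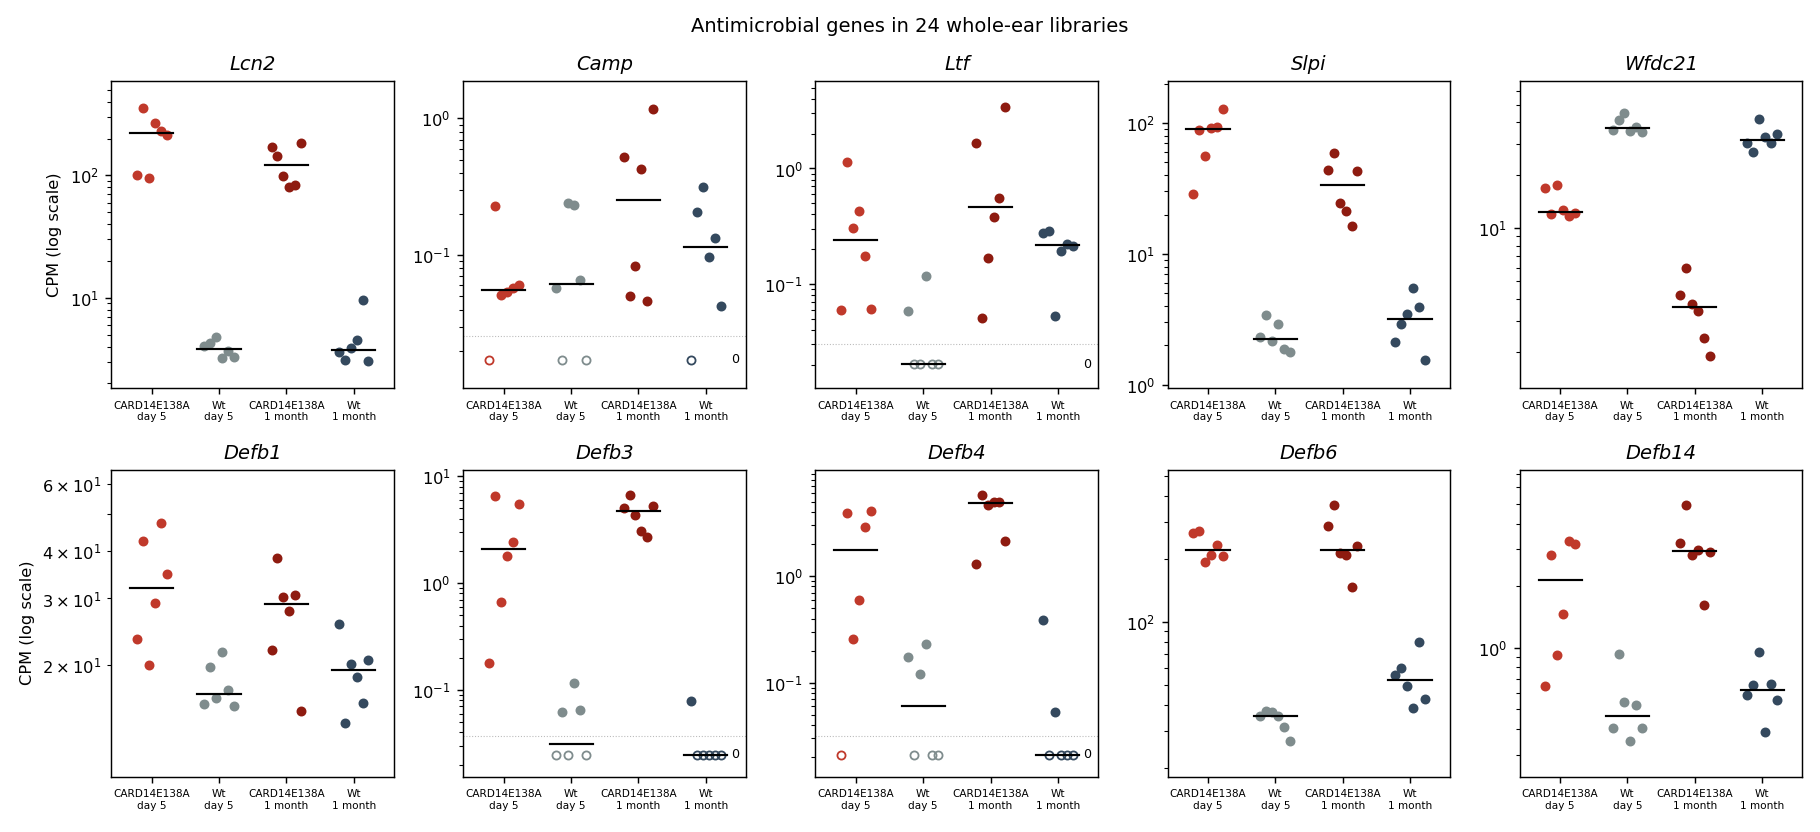
Levels of the 10 genes in each of the 24 libraries, in CPM on a log scale, with CARD14E138A beside Wt at day 5 and at 1 month. Points are libraries, bars are group medians and open points below the dotted line are libraries without a count; Lcn2 had medians of 222.6 CPM in CARD14E138A and 3.854 CPM in Wt ears at day 5, and Wfdc21 is the gene with the points of both CARD14E138A groups below those of Wt.

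**Figure D2:**
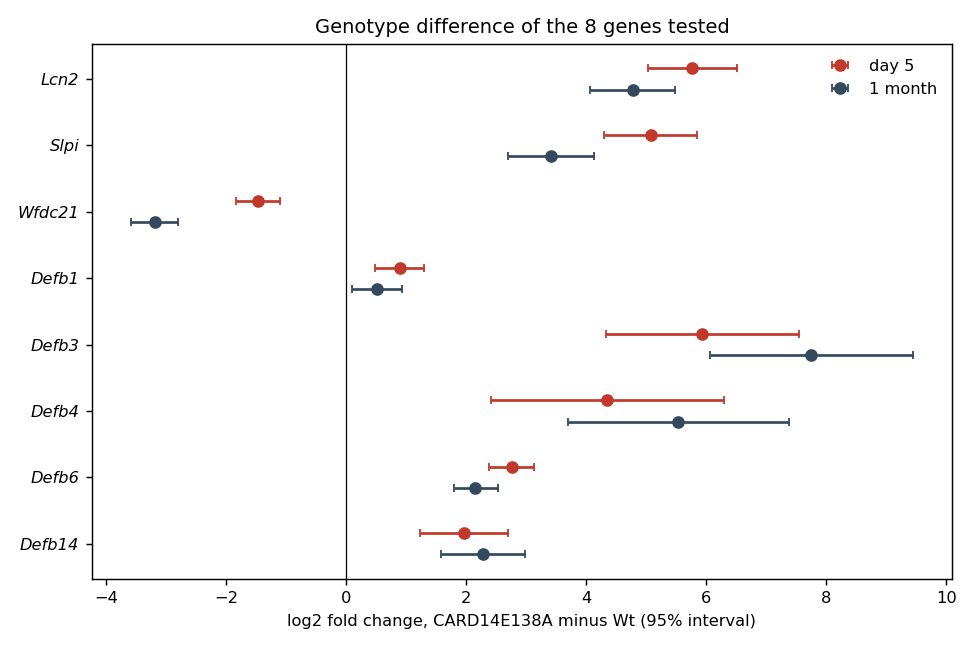
Log2 fold change, CARD14E138A minus Wt, of the 8 genes tested at day 5 and at 1 month. The 95% intervals were computed from the SE of the edgeR fit. Wfdc21 alone lies left of 0, at -1.47 at day 5 and -3.19 at 1 month, and Defb3 and Defb4, nearly without counts in Wt ears, have the widest intervals.

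Lcn2 (ENSMUSG00000026822, GRCm38 chromosome 2, 32384633 to 32388252, minus strand), the siderophore-binding lipocalin, was raised at both times. At day 5 its lowest, median and highest levels were 94.61, 222.6 and 357.1 CPM in CARD14E138A ears and 3.205, 3.854 and 4.775 CPM in Wt ears. At 1 month they were 80.37, 120.8 and 183.9 CPM in CARD14E138A ears and 3.036, 3.766 and 9.644 CPM in Wt ears. Every CARD14E138A library lay above every Wt library of its time, and Wt replicate 5 at 1 month stood above the other Wt libraries. The log2 fold change was 5.76 ± 0.38 (SE) at day 5 (edgeR adjusted p = 1.35e-10) and 4.77 ± 0.36 at 1 month (edgeR adjusted p = 9.24e-10). The difference between these, -1.0 ± 0.45, did not pass the test (edgeR adjusted p = 0.206).

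At 1 month the CARD14E138A libraries low in Y-linked genes were the 3 highest for Lcn2, with 142.6 to 183.9 CPM against 80.37 to 99.0 CPM in the other 3. Without the 4 libraries the log2 fold changes at 1 month were 4.12 for Lcn2, 2.63 for Slpi, -3.44 for Wfdc21, 0.53 for Defb1, 7.11 for Defb3, 5.54 for Defb4, 1.81 for Defb6 and 1.95 for Defb14, and all 8 passed the test (edgeR adjusted p of 0.0396 for Defb1 and at most 0.000721 for the others). Without them the change of the Lcn2 difference between the times was -1.66 and passed the test (edgeR adjusted p = 0.0194). The same 3 libraries were also the highest for Slpi (42.66 to 58.73 CPM against 16.48 to 24.61 CPM), Defb3 (5.05 to 6.693 CPM against 2.724 to 4.353 CPM) and Defb6 (230.2 to 361.0 CPM against 147.3 to 212.8 CPM). In Wfdc21, Defb1, Defb4 and Defb14 the ranges of the 3 and the other 3 libraries overlapped. The part that whatever sets these libraries apart had in the results was not tested.

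Slpi (ENSMUSG00000017002, GRCm38 chromosome 2, 164354070 to 164389095, minus strand), the inhibitor of neutrophil elastase, was higher in CARD14E138A ears at both times and came down within the mutants with time. Its lowest, median and highest levels at day 5 were 28.66, 90.41 and 129.0 CPM in CARD14E138A ears and 1.797, 2.245 and 3.391 CPM in Wt ears. At 1 month they were 16.48, 33.64 and 58.73 CPM in CARD14E138A ears and 1.539, 3.195 and 5.521 CPM in Wt ears. The genotypes did not overlap at either time. The log2 fold change was 5.07 ± 0.40 at day 5 (edgeR adjusted p = 1.77e-09) and 3.41 ± 0.36 at 1 month (edgeR adjusted p = 8.1e-08).

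The genotype difference of Slpi was smaller at 1 month by -1.66 ± 0.49 on the log2 scale (edgeR adjusted p = 0.0355). Of the 8 genes tested, Slpi and Wfdc21 had a call for this change between the times, both towards lower values, while 4.68% of all tested genes were called higher and 4.09% lower (8.77% in all). The call of Slpi was lost in 15 of 33 alternative settings, with adjusted p up to 0.0763, and without the 4 libraries low in Y-linked genes the change was -2.46 (edgeR adjusted p = 0.00263). Within the CARD14E138A ears, Slpi was lower at 1 month than at day 5, with a log2 difference of -1.24 ± 0.33 (edgeR adjusted p = 0.00875) and overlapping libraries. Slpi and Wfdc21 were the 2 of 8 genes called between the times in CARD14E138A ears, where 11.2% of all tested genes were called higher and 8.24% lower (19.4% in all). The comparisons over time use the same libraries as those between genotypes and are given beside them only.

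Wfdc21 (ENSMUSG00000051748, GRCm38 chromosome 11, 83746940 to 83752642, plus strand), another small secreted WAP-domain protein, went the other way. At day 5 its lowest, median and highest levels were 11.69, 12.48 and 17.75 CPM in CARD14E138A ears and 35.47, 37.04 and 45.03 CPM in Wt ears. At 1 month they were 1.897, 3.564 and 5.988 CPM in CARD14E138A ears and 27.05, 31.89 and 41.8 CPM in Wt ears. No library of one genotype reached the range of the other, and the 6 CARD14E138A libraries of 1 month lay below all those of day 5, as 1 of the 8 genes, where 8.61% of all tested genes did not overlap. The log2 fold change was -1.47 ± 0.19 at day 5 (edgeR adjusted p = 1.5e-06) and -3.19 ± 0.20 at 1 month (edgeR adjusted p = 6.2e-11). The genotype difference grew by -1.72 ± 0.27 (edgeR adjusted p = 0.000148), a call kept in all 33 alternative settings. Between the times the level fell by 1.95 ± 0.20 on the log2 scale in CARD14E138A ears (edgeR adjusted p = 1.14e-07), and the difference in Wt ears was -0.23 ± 0.18 (edgeR adjusted p = 0.42).

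Markers of other tissues of the ear stood lower beside Wfdc21. The 5 sebaceous gland markers, 4 of which fell at each time, summed to 2318 to 4243 CPM in CARD14E138A and 6312 to 8618 CPM in Wt ears at day 5, and to 1984 to 3459 CPM in CARD14E138A and 4710 to 7481 CPM in Wt ears at 1 month. The 3 cartilage markers summed to 86.75 to 186.0 CPM in CARD14E138A and 278.4 to 387.1 CPM in Wt ears at day 5. At 1 month they summed to 92.93 to 217.7 CPM in CARD14E138A and 214.6 to 538.1 CPM in Wt ears, with overlapping ranges. The 3 skeletal muscle markers, all of which fell at each time, summed to 705.3 to 1328 CPM in CARD14E138A and 1757 to 2576 CPM in Wt ears at day 5, and to 275.5 to 2001 CPM in CARD14E138A and 2477 to 8991 CPM in Wt ears at 1 month. Over all tested genes 20.2% were called lower at day 5 and 21.5% at 1 month. The part of these tissues in the Wfdc21 result was not tested.

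Other genes of the WAP family, which share a small domain held by disulfide bridges, also went both ways. Of 18 further family genes 7 were tested. At day 5, 4 were higher, 2 lower and 1 was not called, with a median log2 fold change of 0.62, and at 1 month 3 were higher, 3 lower and 1 was not called, with a median of 0.45. Over all tested genes 20.7% were called higher and 20.2% lower at day 5, and 25.5% and 21.5% at 1 month, and Wfdc18 passed the filter only through the CARD14E138A libraries. Wfdc12 averaged 14.98 CPM in CARD14E138A and 1.029 CPM in Wt ears at day 5, 3.86 ± 0.44 higher on the log2 scale (edgeR adjusted p = 3.58e-07), and rose by 2.68 ± 0.41 at 1 month. Wfdc18 had its larger fold change at 1 month, 3.74 ± 0.41 (edgeR adjusted p = 1.2e-07), against 2.24 ± 0.42 at day 5, a difference that did not pass the test (edgeR adjusted p = 0.13). Wfdc17, known from activated macrophages in mice, rose by 2.02 ± 0.27 at day 5 and 1.12 ± 0.27 at 1 month, beside macrophage and monocyte markers that summed to 490.2 to 1211 CPM in CARD14E138A and 359.5 to 460.6 CPM in Wt ears at day 5. Wfdc2 averaged 4.272 CPM in CARD14E138A and 22.88 CPM in Wt ears at 1 month, which is -2.43 ± 0.34 on the log2 scale (edgeR adjusted p = 2.73e-06), and Wfdc3 fell by 1.97 ± 0.35 at that time.

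**Figure D3:**
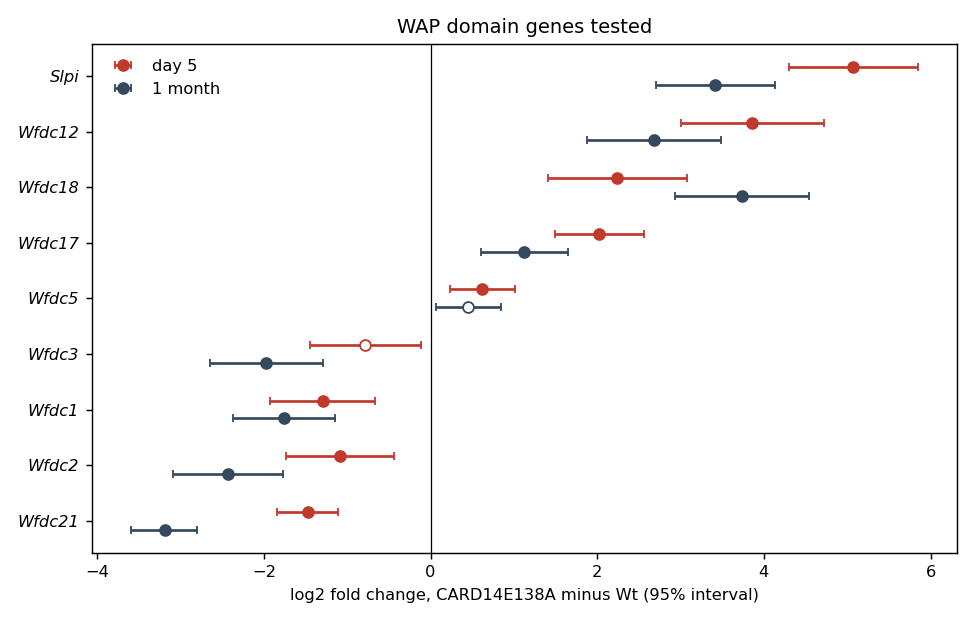
Log2 fold change, CARD14E138A minus Wt, of the 9 WAP-domain genes tested, with 95% intervals at day 5 and at 1 month. Filled points passed the edgeR test and open points did not. Slpi, at 5.07 and 3.41, is drawn in the top row and Wfdc21, at -1.47 and -3.19, in the bottom row. The order of the rows is not a ranking.

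Defb6 (ENSMUSG00000050756) was the most abundant defensin in every group and rose in CARD14E138A ears. Its lowest, median and highest levels at day 5 were 193.5, 220.1 and 272.3 CPM in CARD14E138A ears and 26.89, 35.56 and 37.48 CPM in Wt ears. At 1 month they were 147.3, 221.5 and 361.0 CPM in CARD14E138A ears and 38.7, 52.59 and 79.67 CPM in Wt ears. The genotypes were far apart at both times, and the day 5 libraries were close together within each genotype. The log2 fold change was 2.76 ± 0.19 at day 5 (edgeR adjusted p = 2.22e-10) and 2.15 ± 0.19 at 1 month (edgeR adjusted p = 4.33e-09).

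Defb6 was also the one gene of the 8 called between the times in Wt ears, where 6.28% of all tested genes were called higher and 2.81% lower (9.09% in all). With RLE or total-count scaling the whole-table split of higher and lower calls in Wt ears shifted to 1457 and 374 or 1518 and 346 genes, against 1086 and 486 with TMM. The 6 Wt libraries of 1 month lay above the 6 of day 5, 0.68 ± 0.18 higher on the log2 scale (edgeR adjusted p = 0.0196), and groups did not overlap in 5.07% of tested genes. The call was lost without Wt replicate 6 of day 5 (0.62, edgeR adjusted p = 0.0533) and without Wt replicate 5 of 1 month (0.54, edgeR adjusted p = 0.0692). The 3 skeletal muscle markers were also called higher with time in Wt ears, with sums of 2477 to 8991 CPM at 1 month and 1757 to 2576 CPM at day 5, and their part in the Defb6 result was not tested. In CARD14E138A ears the Defb6 difference between the times was 0.07 ± 0.18 (edgeR adjusted p = 0.815). The change of the genotype difference, -0.61 ± 0.25, did not pass the test (edgeR adjusted p = 0.159) and passed it without the 4 libraries low in Y-linked genes, at -0.97 (edgeR adjusted p = 0.00775).

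Defb3, Defb4 and Defb14 are the beta-defensins known as inducible in mouse epithelia, and Defb14 is the mouse counterpart of human beta-defensin 3. Defb3 and Defb4 were at the edge of detection in Wt ears, and Defb14 had a few counts in each Wt library. Defb3 (ENSMUSG00000039775) had 4 counts over the 6 Wt libraries of day 5 and 2 counts, both in replicate 1, over those of 1 month. In CARD14E138A ears its lowest, median and highest levels were 0.178, 2.106 and 6.532 CPM at day 5, against 0, 0.0308 and 0.117 CPM in Wt ears, and 2.724, 4.702 and 6.693 CPM at 1 month, against 0, 0 and 0.0782 CPM in Wt ears. No Wt library reached the lowest CARD14E138A library. The fitted log2 fold change was 5.93 ± 0.82 at day 5 (edgeR adjusted p = 4.79e-06) and 7.75 ± 0.86 at 1 month (edgeR adjusted p = 1.4e-07). At 1 month, 573 counts in CARD14E138A against 2 in Wt ears gave a ratio of 301.8, with a 95% interval of 83.16 to 2498 that covers counting error only. The fitted value of Defb3 was 9.45 at 1 month without Wt replicate 1, which held both counts, and 6.54 at day 5 without Wt replicate 4.

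Defb4 (ENSMUSG00000059230) was at 0, 1.744 and 4.09 CPM (lowest, median and highest) in CARD14E138A and 0, 0.0604 and 0.233 CPM in Wt ears at day 5. At 1 month it was at 1.302, 4.811 and 5.787 CPM in CARD14E138A and 0, 0 and 0.391 CPM in Wt ears. The groups overlapped at day 5 through a CARD14E138A library without a count and did not overlap at 1 month. Of the 11 Wt counts at 1 month 10 were in replicate 1, the same library that held both counts of Defb3. Defb4 rose by 4.35 ± 0.99 on the log2 scale at day 5 (edgeR adjusted p = 0.00112) and 5.53 ± 0.94 at 1 month (edgeR adjusted p = 3.37e-05). Without Wt replicate 1 the fitted value at 1 month was 7.97 (edgeR adjusted p = 7.93e-06).

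Defb14 (ENSMUSG00000046354) had 0.6527, 2.133 and 3.299 CPM in CARD14E138A and 0.3497, 0.4641 and 0.9247 CPM in Wt ears at day 5, and 1.616, 2.948 and 4.932 CPM in CARD14E138A and 0.3875, 0.6217 and 0.9475 CPM in Wt ears at 1 month. The groups overlapped at day 5 and not at 1 month. Defb14 rose by 1.96 ± 0.38 on the log2 scale at day 5 (edgeR adjusted p = 0.00021) and 2.27 ± 0.36 at 1 month (edgeR adjusted p = 1.2e-05). Between the times none of Defb3, Defb4 and Defb14 passed the test of a change of the genotype difference, with fitted changes of 1.82 ± 1.71, 1.18 ± 1.62 and 0.32 ± 0.52 (edgeR adjusted p = 0.674, 0.814 and 0.858), whose errors are too wide to show that they stayed alike.

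CARD14E138A replicates 1 and 3 of day 5 were the lowest of their group for Lcn2, Slpi, Defb1, Defb3, Defb4 and Defb14. Replicate 1 had 3 counts of Defb3, no count of Defb4 and 11 of Defb14, and replicate 3 had 13, 5 and 18. The 8 neutrophil markers summed to 1963 and 2288 CPM in these libraries and to 5400 to 8862 CPM in the other 4. Most of each sum came from S100a8 and S100a9, which keratinocytes also make, so the sums do not measure neutrophils alone. For Defb6 replicate 3 was the lowest as well, at 193.5 CPM, and replicate 1, at 267.1 CPM, was second highest. The part of neutrophil content in these levels was not tested.

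Defb1 (ENSMUSG00000044748), the beta-defensin known as constitutive in epithelia, had the smallest fold changes of the 8 genes tested. It had 20.05, 31.99 and 47.4 CPM in CARD14E138A and 15.65, 16.81 and 21.74 CPM in Wt ears at day 5, and 15.13, 29.04 and 38.4 CPM in CARD14E138A and 14.08, 19.41 and 25.77 CPM in Wt ears at 1 month. The genotypes overlapped at both times. At day 5 it was 0.89 ± 0.21 higher on the log2 scale (edgeR adjusted p = 0.00155). At 1 month the difference was 0.51 ± 0.21 (edgeR adjusted p = 0.0473), and this call was lost in 23 of 34 alternative settings, with adjusted p up to 0.137.

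Set side by side per kilobase of exon, the 5 defensins were dominated by Defb6. It made up a median of 91.44% of their summed CPM per kb in CARD14E138A and 81.04% in Wt ears at day 5, and 90.91% in CARD14E138A and 84.15% in Wt ears at 1 month. Defb1 was next in Wt ears, with a median share of 5.018% in CARD14E138A and 16.13% in Wt ears at day 5, and 4.026% in CARD14E138A and 13.57% in Wt ears at 1 month. Defb3 held a median of 1.955% in CARD14E138A ears at 1 month, and no Wt library of that time gave it more than 0.138%. In GENCODE M21 the exon model of Defb14 is its coding sequence alone, and its level per kb depends on that model. The annotation behind the deposited counts is not named, so whether reads outside the coding sequence were counted is not known.

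**Figure D4:**
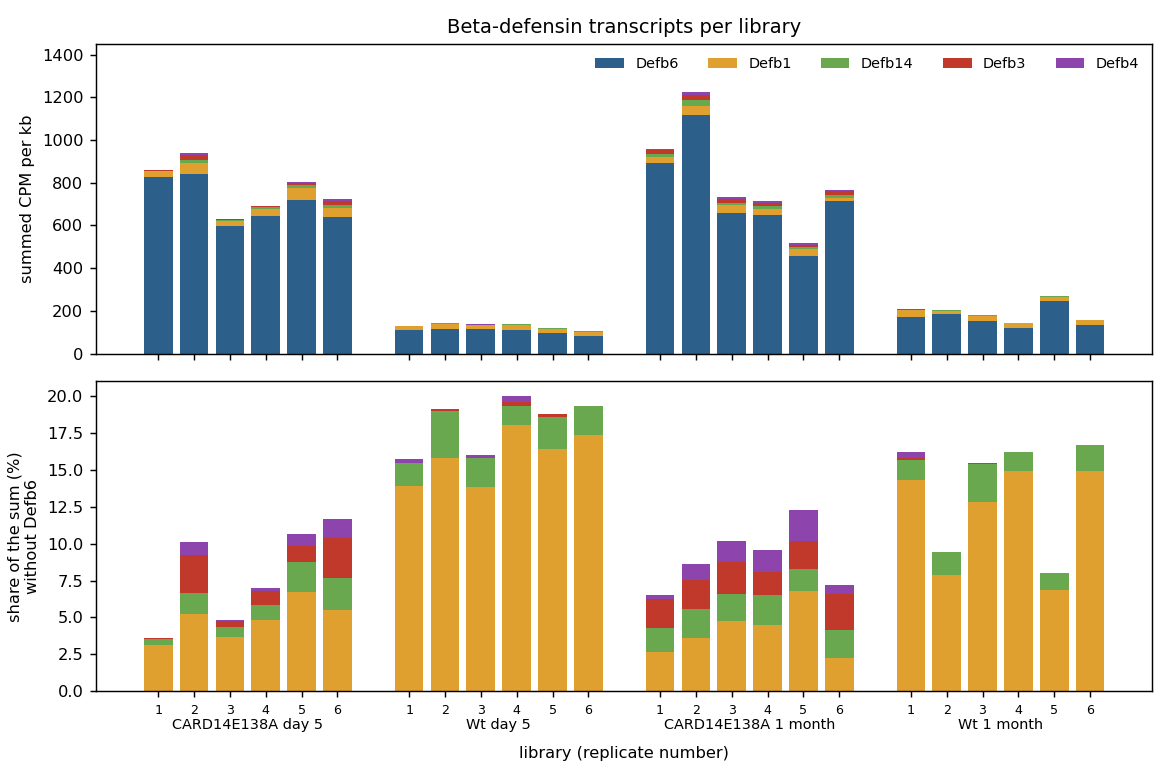
Summed CPM per kb of the 5 beta-defensins in each library (top) and the shares of Defb1, Defb14, Defb3 and Defb4 in that sum (bottom, percent, with Defb6 making up the rest). The sums are 629.5 to 938.0 in CARD14E138A and 103.2 to 143.5 in Wt ears at day 5, and 520.0 to 1223 in CARD14E138A and 143.0 to 268.2 in Wt ears at 1 month. Defb8 is not part of the sums.

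Over all 10 genes, Defb6 also had the highest level per kb in every group, with a median of 681.5 CPM per kb in CARD14E138A and 110.1 in Wt ears at day 5. In CARD14E138A ears of day 5 Lcn2 (median 84.86 CPM per kb) and Slpi (76.62) followed, with overlapping ranges. In Wt ears of day 5 the second place was held by Wfdc21, whose range of 81.73 to 103.7 CPM per kb overlapped that of Defb6, and Lcn2, at 1.469, was sixth. By 1 month Wfdc21 was eighth of 10 in CARD14E138A ears (median 8.211 CPM per kb) and still second in Wt ears (73.48). The exon model of Lcn2 is 2623 bases long because it includes alternative transcripts. With the 915 bases of its first listed transcript the median of Lcn2 was 243.3 CPM per kb in CARD14E138A ears of day 5, second to Defb6 as before, and 4.212 in Wt ears of day 5, at rank 4 in place of rank 6.

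Of 38 further beta-defensin genes in the annotation, 13 had a count in any library and Defb8 alone was tested. Defb8 went against the 5 described. At 1 month its lowest, median and highest levels were 0, 0.7206 and 1.978 CPM in CARD14E138A and 9.154, 11.77 and 34.15 CPM in Wt ears, without overlap, which is -4.49 ± 0.63 on the log2 scale (edgeR adjusted p = 3.2e-06). At day 5 they were 0, 0 and 0.1805 CPM in CARD14E138A and 0, 0.489 and 0.665 CPM in Wt ears, and the call (edgeR adjusted p = 0.037) was lost without a filter (0.0827) and in 10 further settings, most of them with 1 library left out. In Wt ears Defb8 was higher at 1 month than at day 5 by 5.55 ± 0.69 on the log2 scale (edgeR adjusted p = 1.92e-05). Its 2 highest Wt libraries, replicates 2 and 5, had 32.76 and 34.15 CPM.

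Camp (ENSMUSG00000038357, GRCm38 chromosome 9, 109847379 to 109849617, minus strand), the mouse cathelicidin, was almost without reads. It had 8 counts over the 6 CARD14E138A and 10 over the 6 Wt libraries at day 5, and 48 in CARD14E138A and 17 in Wt ears at 1 month. In a fit without the filter neither difference passed the test (log2 fold changes of -0.37 and 1.5, edgeR adjusted p = 0.879 and 0.148). Ltf (ENSMUSG00000032496, GRCm38 chromosome 9, 111019271 to 111042767, plus strand), lactoferrin, had 39 counts in CARD14E138A and 3 in Wt ears at day 5, a ratio of counts of 12.2 with a 95% counting interval of 3.88 to 61.73, and 128 in CARD14E138A and 29 in Wt ears at 1 month. In the fit without the filter Ltf passed the test at both times, with 3.36 ± 1.13 at day 5 (edgeR adjusted p = 0.0351) and 2.24 ± 0.74 at 1 month (edgeR adjusted p = 0.0248). Neither call was firm. At 1 month the value was 1.35 without CARD14E138A replicate 6 (edgeR adjusted p = 0.157), 2.06 without CARD14E138A replicate 1 (0.0533), 2.07 without Wt replicate 3 (0.0543) and 0.87 without the 4 libraries low in Y-linked genes (0.392). At day 5 it was 2.59 without CARD14E138A replicate 2 (edgeR adjusted p = 0.135), and the call was also lost without CARD14E138A replicate 4 or any of Wt replicates 1, 2, 3, 5 and 6 (0.0511 to 0.0718). Without Wt replicate 4, which had 2 of the 3 Wt counts, it was 4.33. At 1 month most counts came from CARD14E138A replicates 6 and 1, which held 70 and 32 of Ltf and 24 and 10 of Camp, and the groups overlapped in both genes. The 6 exocrine gland markers, of which Prol1 and Dcpp1 had no count in any group, summed to 1.106 to 5.779 CPM in CARD14E138A and 2.777 to 7.054 CPM in Wt ears at 1 month.

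The low counts of Camp and Ltf stood beside high levels of genes of mature neutrophils. The 8 neutrophil markers summed to 1963 to 8862 CPM in CARD14E138A and 20.4 to 27.13 CPM in Wt ears at day 5, and to 3235 to 7155 CPM in CARD14E138A and 25.49 to 69.69 CPM in Wt ears at 1 month. S100a8 and S100a9, which keratinocytes also make, carry most of these sums. Ly6g, a defining marker of mouse neutrophils, had 195 counts in CARD14E138A and none in Wt ears at day 5, at least 61.02-fold higher if the Wt group is set to 3 counts, and 19 counts in CARD14E138A and 2 in Wt ears at 1 month. Cxcr2 had a median of 102.4 CPM in CARD14E138A and 3.671 CPM in Wt ears at day 5, and 36.44 CPM in CARD14E138A and 4.561 CPM in Wt ears at 1 month. The 7 markers of neutrophil precursors, Camp and Ltf among them, summed to 1.227 to 4.526 CPM in CARD14E138A and 1.911 to 2.972 CPM in Wt ears at day 5, and to 1.359 to 11.14 CPM in CARD14E138A and 0.969 to 2.698 CPM in Wt ears at 1 month.

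Of 9 tested neutrophil granule genes other than the 10 described, 5 were higher, 2 lower and 2 not called at day 5, with a median log2 fold change of 1.35, and 5 were higher and 4 not called at 1 month, with a median of 1.09. Over all tested genes 40.9% were called at day 5 and 47.1% at 1 month. Mmp8, Cd177 and Prtn3 passed the filter only through the CARD14E138A libraries, so the counts are a description. Mmp9, among those not called at 1 month (0.26 ± 0.38), was at -0.74 with voom and -0.68 without the 4 libraries low in Y-linked genes. Mmp8, the neutrophil collagenase, rose by 6.99 ± 0.66 at day 5 (edgeR adjusted p = 2.53e-08) and 3.54 ± 0.59 at 1 month. Cd177, a surface protein of neutrophils, averaged 6.384 CPM in CARD14E138A and 0.0396 CPM in Wt ears at day 5. Mpo, the primary granule peroxidase, fell at day 5, with 20 counts in CARD14E138A and 81 in Wt ears (edgeR adjusted p = 0.00589). Ngp, a secondary granule gene like Camp and Ltf, had 38 counts in CARD14E138A and none in Wt ears at day 5. At 1 month it had 172 in CARD14E138A and 1 in Wt ears. Of these 172 counts, 93 were in 1 library, at 4.524 CPM against a group median of 0.4167 CPM.

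Among genes known to induce antimicrobial proteins in keratinocytes, those of the IL-17, IL-22, IL-20 and TNF families are described. Over all tested genes 20.7% were called higher at day 5 and 25.5% at 1 month, with median log2 fold changes of -0.024 and 0.048. Of 15 inducing cytokines tested, 13 were higher and 2 not called at each time, with a median log2 fold change of 5.45 at day 5 and 3.71 at 1 month when genes without a Wt count are held at their bound. Of these 15 genes 8 (Il17a, Il17c, Il17f, Il22, Il6, Il19, Il24 and Osm) passed the filter only through the CARD14E138A libraries, so the counts and medians are a description and no evidence about the list. Il17a and Il22, the T-cell cytokines, had no count in the 12 Wt libraries, and with the Wt group set to 3 counts they were at least 43.81-fold and 545.1-fold higher in CARD14E138A ears at day 5 and at least 37.92-fold and 166.4-fold higher at 1 month. Il17c, the epithelial member of the family, averaged 3.095 CPM in CARD14E138A and 0.0887 CPM in Wt ears at day 5, and 0.376 CPM in CARD14E138A and 0.0400 CPM in Wt ears at 1 month. Il19 rose by 9.27 ± 0.77 at day 5 (edgeR adjusted p = 4.57e-09) and 6.83 ± 0.67 at 1 month. Il20 of the same family was nearly level between the genotypes. It averaged 0.721 CPM in CARD14E138A and 0.7308 CPM in Wt ears at day 5. At 1 month it averaged 0.3697 CPM in CARD14E138A and 0.3821 CPM in Wt ears. Tnf rose by 2.87 ± 0.22 at day 5 and 1.70 ± 0.21 at 1 month. Of the 5 cytokines Tnf, Il19, Il6, Il17f and Il17c, Tnf alone passed the test of a change of the genotype difference between the times (-1.18 ± 0.30, edgeR adjusted p = 0.0139). A missing call in the others does not show that their differences stayed alike.

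Against 40.9% of all tested genes called at day 5 and 47.1% at 1 month, of 16 receptors and regulators of this induction, 14 were higher, 1 lower and 1 not called at day 5 (median 0.95), and 12 were higher, 1 lower and 3 not called at 1 month (median 0.61). Nfkbiz, the gene of the IκBζ cofactor through which IL-17 acts on Lcn2 and defensin genes, averaged 140.9 CPM in CARD14E138A and 26.09 CPM in Wt ears at day 5, and 100.5 CPM in CARD14E138A and 21.75 CPM in Wt ears at 1 month, with log2 fold changes of 2.43 ± 0.18 and 2.21 ± 0.18. Zc3h12a, whose product cuts inflammatory mRNAs, rose by 3.61 ± 0.17 and 3.17 ± 0.17 (edgeR adjusted p = 7.03e-13 and 5.45e-12). Tnfaip3, the NF-κB inhibitor A20, rose by 2.58 ± 0.12 at day 5 and 0.77 ± 0.12 at 1 month, and this difference passed the test (edgeR adjusted p = 2.47e-07). The receptor gene Il22ra1 fell by 0.72 at day 5 (edgeR adjusted p = 0.00503) and was -0.15 at 1 month (edgeR adjusted p = 0.575).

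Among 15 other antimicrobial genes of skin and myeloid cells that were tested, 11 were higher, 1 lower and 3 not called at day 5 (median 2.23), and 10 were higher, 1 lower and 4 not called at 1 month (median 1.72), but S100a7a, Reg3g, Lpo and Chil3 passed the filter only through the CARD14E138A libraries. Over all tested genes 20.7% were called higher and 20.2% lower at day 5, and 25.5% and 21.5% at 1 month. Pglyrp3, a peptidoglycan recognition protein of epithelia, averaged 13.96 CPM in CARD14E138A and 2.352 CPM in Wt ears at day 5 and was also higher at 1 month, with log2 fold changes of 2.56 ± 0.22 and 2.60 ± 0.22. S100a7a, the mouse psoriasin gene, rose by 3.39 ± 0.54 at day 5 and 3.63 ± 0.48 at 1 month. Lyz1, a lysozyme gene, was the one that fell, by 1.53 at day 5 and 1.23 at 1 month (edgeR adjusted p = 8.06e-06 and 5.48e-05).

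The genes whose log2 CPM followed each antimicrobial gene most closely over the 24 libraries were named by Pearson correlation, as a description without a test, since the libraries share groups. Lcn2 was most like Bcl3 (r = 0.991) and Plscr1 (0.988), Slpi like Chil1 (0.989) and Fetub (0.98), and Wfdc21 like Cldn23 (0.981) and Gm94 (0.978). Defb3 was most like the connexin gene Gjb2 (0.988) and Sprr2j-ps (0.981), Defb4 like the connexin genes Gjb6 (0.962) and Gja1 (0.952), Defb14 like Glrx (0.94) and BC117090 (0.94), and Defb1 like Serp1 (0.91) and Leo1 (0.881). Within the groups, as deviations from group means, Defb3 and Gjb2 still had r = 0.908 and Defb4 and Gjb6 r = 0.878. Defb6 differed, since its closest genes, S100a9 (0.969) and S100a8 (0.968), had r = 0.142 and 0.109 within the groups.

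The antimicrobial genes also varied together to different degrees within the groups. Defb3 and Defb4 had r = 0.78 in deviations from group means, Defb3 and Defb14 r = 0.76, Defb1 and Defb4 r = 0.72, and Lcn2 and Slpi r = 0.70. Defb6 had r = 0.49 with Lcn2, 0.40 with Defb14, 0.36 with Slpi, 0.35 with Wfdc21, 0.18 with Defb3, 0.06 with Defb1 and 0.00 with Defb4. Wfdc21 had r = -0.21 with Lcn2 and 0.03 with Slpi within the groups. All 24 libraries enter each of these values, and they share depth and group.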

How the data were processed

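The authors deposited RSEM expected counts for each Ensembl gene, with no scaling between libraries, per the file headers. STAR 2.5.2, RSEM 1.3.0, DESeq2 1.14.1 and build GRCm38 are named per the submitters' processing notes, and their gene annotation is not. All values were rounded, 6.71% of them not being whole. GENCODE M21 (GRCm38) gave symbols and coordinates for 51719 of 51912 identifiers. In R 4.3.3, edgeR 4.0.16 was run with filterByExpr by group, TMM factors and a robust quasi-likelihood fit of 1 coefficient per group to all 24 libraries, with two-sided tests and Benjamini-Hochberg adjustment over 17289 genes (calls below 0.05). The SE is an approximation, the log2 fold change divided by the square root of F. The SEs at day 5 and at 1 month therefore need not combine into that of the change between them. CPM uses TMM-scaled totals, log2 CPM a prior count of 2, and levels between genes CPM per kb of exon union. Floors are 3 counts over a group. These floors and the 95% intervals of count ratios cover counting error only. The 95% intervals of log2 fold changes in the figures were computed from the SE with a normal distribution. The fits were tested on simulated data.

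Alternatives were DESeq2 1.42.0, limma 3.58.1 voom with quality weights, RLE factors, total counts, no filter, a replicate block, a fit without robust shrinkage, a filter of 1 CPM in 6 libraries, a fit to the compared libraries alone, each library left out and, added after seeing the data, the 4 libraries low in Y-linked genes left out and, for Camp and Ltf, libraries left out without a filter. The smallest chi-square per degree of freedom between libraries of a group was 4.86, so all 24 libraries were kept as separate. Named genes are the 10 genes, up to 5 per list with the smallest adjusted p and a group mean of 1 CPM or more, the 2 protein-coding genes of at least 5 CPM closest to each tested gene, the cell type markers, and further list members (those that fell, granule genes and known inducers), the last chosen after their values were seen. The members and lists were chosen with earlier results of these data known. Promoter sequences are from RefSeq (GRCm38.p6), coding sequences from GENCODE. Protein sequences were not used here.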

Additional observations from a re-analysis of the deposited data

Results flagged for a closer look

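In 6 cases 1 library stood far from the other 5 of its group by a gap rule. Chance meets this rule in about 1 in 20 groups of well-measured values. That rate does not hold for groups with few or no counts, as for Camp, Ltf, Defb3 and Defb4. There, a few counts in 1 library easily meet the rule. With 10 genes in 4 groups, some cases are also due to chance alone. Lcn2 was at 9.64 CPM in Wt replicate 5 of 1 month, with the next library at 4.55 CPM. Camp was at 0.229 CPM and Ltf at 1.15 CPM in CARD14E138A replicate 2 of day 5, with the next libraries at 0.0602 and 0.432 CPM, and the same library was the highest of its group for Lcn2, Defb3 and Defb6. Defb3 was at 0.0782 CPM and Defb4 at 0.391 CPM in Wt replicate 1 of 1 month, where the next values were 0 and 0.0526 CPM, so the few Wt counts of both genes at that time came mostly from that library. Defb14 was at 0.925 CPM in Wt replicate 2 of day 5, with the next library at 0.544 CPM.

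The genotype difference of Slpi changed between day 5 and 1 month by -1.66 on the log2 scale (edgeR adjusted p = 0.0355), and that of Wfdc21 by -1.72 (edgeR adjusted p = 0.000148). In Slpi this is a smaller rise at 1 month, and in Wfdc21 a deeper fall.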

How the results depend on the processing

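The 8 calls at day 5 held in all alternatives that gave a value, and at 1 month only that of Defb1 was lost. Calls for a change of the genotype difference numbered 2 of the 8, but 4 with voom and 4 without the 4 libraries low in Y-linked genes, 1 without a filter and 1 with the replicate block; within CARD14E138A ears over time they were 2, but 4 with voom. With single libraries left out the calls of the 8 ranged from 8 to 8 at day 5, 7 to 8 at 1 month, 1 to 3 for the change, 2 to 3 in CARD14E138A over time and 0 to 1 in Wt over time. Over all tested genes these ranges were 6138 to 7539, 7640 to 8244, 1191 to 1732, 2904 to 3728 and 937 to 3025. Genes called numbered 7068 at day 5 (voom 11697), 1516 for the change (voom 8217, without the 4 libraries 4629), 3361 in CARD14E138A over time (voom 5885, only the libraries compared 2109) and 1572 in Wt over time (DESeq2 2458, voom 8226, replicate block 1019, without the 4 libraries 3167; without Wt replicate 1 of 1 month 3025 and without replicate 5 of 1 month 937). The cause was not tested.

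Signs turned only in differences that were not called by the fit reported: Card14 at day 5 (voom -0.08, total counts -0.02, -0.12 to 0.08 with a library left out), Mmp9 at 1 month (voom -0.74, called; -0.21 without CARD14E138A replicate 1 of 1 month and up to 0.40 with others left out; without the 4 libraries -0.68), Defb14 for the change (without the 4 libraries -0.02), Defb6 in CARD14E138A over time (voom -0.23, -0.08 without CARD14E138A replicate 2 of 1 month and up to 0.18 with others left out, without the 4 libraries -0.28), Lcn2 in Wt over time (-0.09 without Wt replicate 5 of 1 month, up to 0.36 with others left out) and Defb4 in Wt over time (-2.6 without Wt replicate 1 of 1 month, up to 0.37 with others left out, 0.13 without the 4 libraries). Same-numbered libraries had correlations of deviations from -0.733 to 0.394, so the replicate numbers do not pair them; the block lost the calls of Slpi for the change (-1.64, adjusted p = 0.0657), of Defb1 at 1 month (0.46, adjusted p = 0.103) and of Defb8 at day 5 (-3.17, adjusted p = 0.0537) and changed no other call of the 8 genes or Defb8. Called values named in the text also moved by over 1.5 times without single libraries in Il19 at day 5 (10.28 without Wt replicate 1), Klk14 at day 5 (2.31 without CARD14E138A replicate 2), Defb8 at day 5 (-4.47 without CARD14E138A replicate 6) and Mmp8 at 1 month (4.2 without Wt replicate 4), and without the 4 libraries at 1 month in Klk6 (2.22), Wfdc2 (-3.16) and Wfdc3 (-2.86). Camp at day 5, without a filter, ranged from -1.04 to 0.08 with libraries left out. Depth limits Camp, Ltf and the Wt levels of Defb3, Defb4 and Defb14, where a few counts per library carry each value.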

Other observations

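Genes that act on or with the antimicrobial proteins changed in part. Of 15 tested proteases and inhibitors, among them the kallikreins and cathepsins known to process such peptides, 8 were higher, 3 lower and 4 not called at each time, with median log2 fold changes of 0.44 at day 5 and 0.83 at 1 month, where 40.9% and 47.1% of all tested genes were called. Klk14 and Prtn3 passed the filter only through the CARD14E138A libraries, so the counts and medians are a description. Klk13 averaged 68.49 CPM in CARD14E138A and 2.736 CPM in Wt ears at day 5 and 255.1 CPM in CARD14E138A and 7.049 CPM in Wt ears at 1 month (edgeR adjusted p = 2.39e-06 and 2.93e-07). Klk6 rose by 3.68 ± 0.56 and 3.07 ± 0.54, and Klk14 by 3.03 ± 0.73 and 3.77 ± 0.55. Klk5, a kallikrein known in humans to cut cathelicidin, fell by 1.03 at day 5 and 0.83 at 1 month (edgeR adjusted p = 0.00251 and 0.00954). Serpinb1a, an inhibitor of neutrophil elastase like Slpi, rose by 1.49 ± 0.19 and 1.18 ± 0.19.

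Receptors and iron genes showed the following. Of 8 tested receptors for the antimicrobial proteins 3 were higher, 2 lower and 3 not called at day 5, and 6 were higher, 1 lower and 1 not called at 1 month, where 20.7% of all tested genes were called higher and 20.2% lower at day 5, and 25.5% and 21.5% at 1 month. Fpr1 and Fpr2 passed the filter only through the CARD14E138A libraries. Slc22a17, a receptor for lipocalin-2, averaged 14.02 CPM in CARD14E138A and 32.27 CPM in Wt ears at day 5 and 11.14 CPM in CARD14E138A and 27.65 CPM in Wt ears at 1 month (edgeR adjusted p = 4.37e-07 and 7.35e-08). Fpr2, a formyl peptide receptor that binds cathelicidin, had 556 counts in CARD14E138A and 1 in Wt ears at day 5, a ratio of 522.0 with a 95% counting interval of 93.3 to 20650. Of 12 iron genes 6 were higher, 2 lower and 4 not called at day 5, and 4 were higher, 2 lower and 6 not called at 1 month, where 40.9% of all tested genes were called at day 5 and 47.1% at 1 month. Trf, transferrin, averaged 211.6 CPM in CARD14E138A and 874.6 CPM in Wt ears at 1 month (edgeR adjusted p = 4.18e-07). Hp, haptoglobin, rose by 2.26 ± 0.31 at day 5 (edgeR adjusted p = 4.16e-06) and was -0.24 ± 0.30 at 1 month (edgeR adjusted p = 0.538), a change between the times that passed the test (edgeR adjusted p = 0.000409).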
